A study of Mus musculus with 6 samples.

Results

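Type I interferon response genes were followed in 6 RNA-seq libraries made from macrophages of the mouse peritoneum, the lining of the abdomen. The genes were chosen by symbol, as interferon-stimulated genes outside the GBP, IRG and IFITM families. Of 45 such genes, 43 were found among the 15469 genes of the table, and 41 had enough counts to be tested. Ifi44 and Ifit3b fell under the count filter, and Mx1 and Mx2 were not analysed here. Of the libraries, 3 are labelled KO, for macrophages in which PU.1 had been deleted, and 3 WT, for their controls. The Spi1 gene encodes PU.1, a factor of the ETS family that binds DNA in myeloid and B cells. Both groups were taken by lavage from CAIA mice, sorted for RELM-α on the cell surface and plated. The labels used here do not say how PU.1 was removed or give the strain, age or sex of the animals, nor whether replicates came from separate animals, so the spread behind each p-value may be technical.

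Type I interferons are secreted signals of viral infection. They bind the receptor formed by Ifnar1 and Ifnar2, whose kinases Jak1 and Tyk2 phosphorylate STAT proteins, Stat2 among them. Stat2 acts with Irf9 in a complex that binds the interferon-stimulated response element, built from repeats of GAAA, in the promoters of its targets. The targets include sensors of foreign RNA and DNA, enzymes that block viral replication, the ubiquitin-like protein Isg15, and Irf7, a factor that amplifies interferon production. Macrophages keep a low level of many of these transcripts without infection. IRF-family factors can also bind with PU.1 at a composite site in which an ETS half-site, GGAA, lies beside GAAA.

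Promoters are shown for the genes of the set that were called higher in KO, or that had the smallest p of their role group, and whose window held a response element. Each window runs from 250 bases before to 50 bases after the annotated start and was taken from the RefSeq table of GRCm38.p6, 5′ to 3′ on the gene's strand. The search was for GAAA followed after 2 bases by GAAA, and for GGAA followed after 2 bases by GAAA, on both strands, so that neighbouring matches may share a half-site. Capitals mark the matches, which read as TTTC followed by TTTC or TTCC when they lie on the opposite strand. The windows of Ddx58 and Isg15 lie on chromosome 4 (chr4:40239776-40240075 and chr4:156200769-156201068, minus strand), that of Oas3 on chromosome 5 (chr5:120777610-120777909, minus strand), that of Stat2 on chromosome 10 (chr10:128270248-128270547, plus strand) and that of Ifit3 on chromosome 19 (chr19:34583279-34583578, plus strand).
Ddx58: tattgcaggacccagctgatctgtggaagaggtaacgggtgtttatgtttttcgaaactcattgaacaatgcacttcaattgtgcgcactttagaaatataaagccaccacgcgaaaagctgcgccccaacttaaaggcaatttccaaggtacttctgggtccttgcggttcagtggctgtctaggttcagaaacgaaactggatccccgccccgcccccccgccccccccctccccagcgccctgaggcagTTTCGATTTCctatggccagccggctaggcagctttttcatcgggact
Stat2: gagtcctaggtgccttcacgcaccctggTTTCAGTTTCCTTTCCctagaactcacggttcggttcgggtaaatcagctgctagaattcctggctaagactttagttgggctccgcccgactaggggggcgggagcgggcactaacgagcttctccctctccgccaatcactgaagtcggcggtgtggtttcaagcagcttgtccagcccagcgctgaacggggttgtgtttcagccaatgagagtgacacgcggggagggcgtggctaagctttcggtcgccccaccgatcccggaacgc
Ifit3: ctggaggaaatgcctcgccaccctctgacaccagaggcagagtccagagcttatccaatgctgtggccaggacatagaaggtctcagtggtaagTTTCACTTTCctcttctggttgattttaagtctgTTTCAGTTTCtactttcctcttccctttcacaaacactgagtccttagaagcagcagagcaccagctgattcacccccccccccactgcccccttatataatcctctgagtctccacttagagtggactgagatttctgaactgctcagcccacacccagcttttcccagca
Oas3: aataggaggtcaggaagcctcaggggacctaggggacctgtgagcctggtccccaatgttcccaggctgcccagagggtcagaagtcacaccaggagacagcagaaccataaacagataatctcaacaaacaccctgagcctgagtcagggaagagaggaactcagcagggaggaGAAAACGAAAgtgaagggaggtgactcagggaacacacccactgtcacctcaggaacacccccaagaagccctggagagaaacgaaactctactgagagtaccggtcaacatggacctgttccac
Isg15: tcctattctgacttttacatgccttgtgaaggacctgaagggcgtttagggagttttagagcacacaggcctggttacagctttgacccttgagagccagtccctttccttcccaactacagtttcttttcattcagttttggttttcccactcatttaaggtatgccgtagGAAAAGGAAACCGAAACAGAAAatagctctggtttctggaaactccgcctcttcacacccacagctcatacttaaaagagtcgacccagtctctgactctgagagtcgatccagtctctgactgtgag

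Isg15 held 3 overlapping response elements in 1 run, Ifit3 held 2 separate ones, and Stat2 held 1 response element that shares a half-site with a composite site. Of the 33 genes of the set with a window, 15 held a response element (45.5%), against 3.99% of all 27025 genes with a window. The composite site was found in 7 of the 33 (21.2%), against 3.16% of all genes. Of the 7 genes called higher in KO that had a window, 4 held a response element (57.1%) and 1 the composite site (14.3%). A match describes the letters of the window and does not show a bound site.

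PU.1 transcript was present at similar levels under both labels. Spi1 was at 276.9, 285.5 and 319.7 CPM (counts per 1e6, with library sizes adjusted by TMM) in KO, against 323.4, 340.2 and 283.7 CPM in WT (log2 difference -0.10, 95% interval -0.363 to 0.156, adjusted p = 0.561 by edgeR). A loss of the transcript was thus not seen, and a loss of single exons could not be tested from counts per gene. Directions below are between the libraries labelled KO and those labelled WT. Library totals ranged from 17280855 to 18632623 counts. KO replicate 1 stood apart: its log2 CPM across genes correlated at 0.902 and 0.922 with KO replicates 2 and 3, which reached 0.99 with each other, and at 0.955 to 0.959 with the WT libraries. All 4 tested Y-linked genes were called lower in KO, with 12 counts in KO together and 7176 in WT together, so the PU.1 label and the sex chromosome content of the libraries cannot be told apart.

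Among the interferon response genes the called differences were all toward higher levels in KO, led by Ifi27l2a, Rtp4 and Ifit3. In bulk RNA such a difference cannot be told apart from a different share of cells that express the gene. By edgeR's quasi-likelihood test with Benjamini-Hochberg adjustment, 10 of the 41 rose and 0 fell at an adjusted p under 0.05, or 24.4% higher, where 3.32% of all 11424 genes tested were called, 2.26% higher and 1.06% lower. At an unadjusted p under 0.05, 23 of the 41 were past the threshold, against 22.7% of all genes, and 1 of the 23, Phf11d, was lower in KO. By DESeq2, which tested all 43, 18 rose and 0 fell. Of these, 17 were among the 41, and the other was Ifit3b, which was under the edgeR filter with at most 2.33 estimated counts in a WT library. DESeq2 made these calls among 10.8% of all genes called (7.12% higher and 3.69% lower). By limma-voom 8 rose and 0 fell, among 3.11% of all genes (2% higher and 1.1% lower). The median log2 difference was 0.54 over the 41 genes and -0.01 over all genes tested. All 41 had at least 10 counts in every WT library, so none entered the edgeR test through KO alone. Every KO library lay above every WT library for 25 of the 41 (61%), against 18.4% of all genes, and below for 1, Phf11d, against 12.6%. Those that did not overlap but missed the test included Isg15, Irf9, Oas1a, Adar and Dtx3l.

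**Figure D1:**
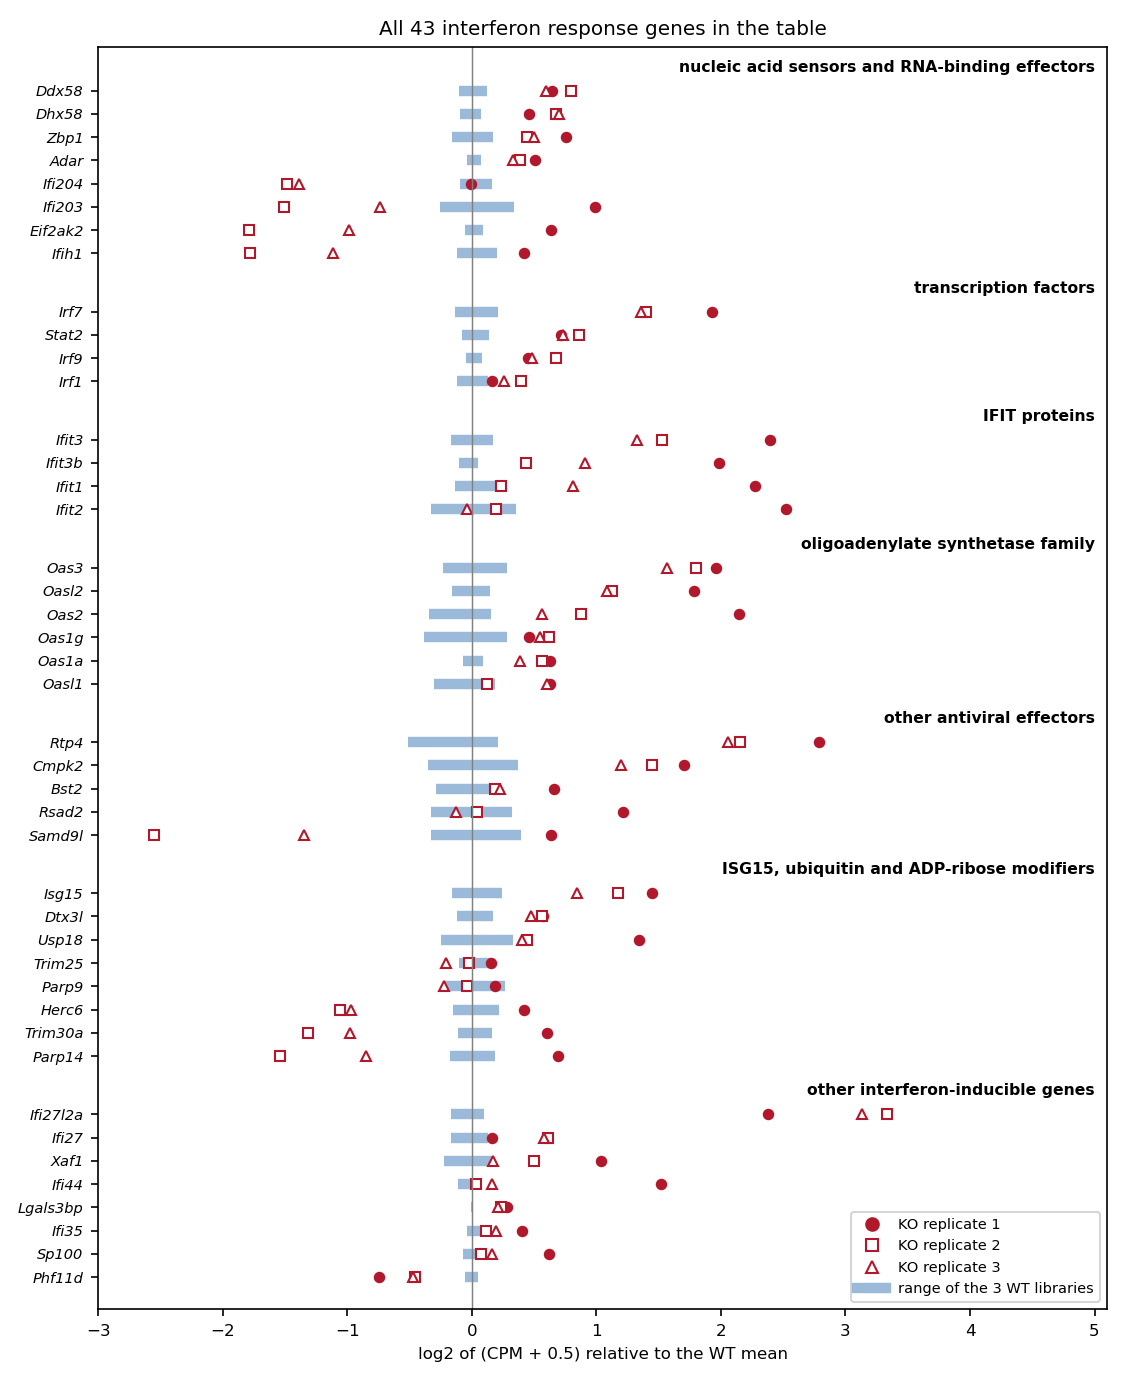
Level of each of the 43 genes in the 3 KO libraries (red symbols) relative to the mean of the WT libraries, on a log2 scale of CPM + 0.5, grouped by role, with the range of the 3 WT libraries in blue. Most red symbols lie right of the blue bars, and 7 genes such as Samd9l and Parp14 have KO replicate 1 on the right and KO replicates 2 and 3 on the left.

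Of the 4 transcription factors of the set, 2 rose and 0 fell. Irf7 (chromosome 7, 141263183 to 141266499), the amplifier of interferon production, was at 17, 11.6 and 11.3 CPM in KO, against 3.66, 4.79 and 3.78 CPM in WT. All KO libraries lay above all WT libraries, and KO replicate 1 was the highest. Irf7 rose 3.25-fold (13.3 ± 3.21 against 4.08 ± 0.621 CPM, SD, n = 3 each; log2 difference 1.70, SE 0.23, edgeR adjusted p = 0.0269). Stat2 (chromosome 10, 128270498 to 128292853), which carries the signal from the receptor to the nucleus, was at 55, 60.9 and 55.8 CPM in KO and 31.9, 31.5 and 36.7 CPM in WT. It rose 1.72-fold with no overlap (log2 0.78, SE 0.103, edgeR adjusted p = 0.0249). The first 753 bases of the Stat2 range also belong to Apof, with 0 exonic bases in common. Irf9, the DNA-binding partner of the complex, was at 41.2, 48.1 and 42.1 CPM in KO and 29.2, 28.9 and 31.8 CPM in WT. The groups did not overlap, at a 1.46-fold difference just outside the threshold (log2 0.55, SE 0.103, edgeR adjusted p = 0.0509; 0.00208 by DESeq2). Irf1, the most abundant factor of the group per length at 47.3 TPM in KO and 35.2 TPM in WT, differed by 1.21-fold (edgeR adjusted p = 0.206).

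Of the 8 nucleic acid sensors and RNA-binding effectors, 2 rose and 0 fell. Ddx58 (chromosome 4, 40203777 to 40239825), which encodes RIG-I, the sensor of RNA ends of viral type, was at 34.7, 38.8 and 33.6 CPM in KO, against 21.6, 20.6 and 24.1 CPM in WT. It rose 1.62-fold without overlap (log2 0.69, SE 0.112, edgeR adjusted p = 0.0389). Dhx58 (chromosome 11, 100694884 to 100704271), which encodes LGP2, a regulator of that sensor, was at 22.8, 26.7 and 27.1 CPM in KO and 17.4, 15.4 and 16.8 CPM in WT. It rose 1.55-fold (log2 0.63, SE 0.115, edgeR adjusted p = 0.048). The call was lost under RLE factors (0.0536), upper-quartile factors (0.0674), limma-voom (0.0517) and with no count filter (0.0604). Ifih1, which encodes MDA5, the sensor of long double-stranded RNA, was at 33.5, 6.88 and 11.3 CPM in KO and 22.9, 23.2 and 28.7 CPM in WT. Its first KO library lay above all WT libraries and the others below them (edgeR adjusted p = 0.581). Adar, which edits adenosine in double-stranded RNA, was at 119.5, 110.2 and 106 CPM in KO and 81.8, 81.6 and 88.7 CPM in WT (1.33-fold, edgeR adjusted p = 0.0624). It shares 1365 exonic bases with Chrnb2 in GENCODE M21, while the RefSeq ranges of the pair share 8 bases. Zbp1, a sensor of left-handed nucleic acid, was at 4.4, 3.44 and 3.6 CPM in KO and 2.09, 2.77 and 2.34 CPM in WT. Neither Adar nor Zbp1 overlapped between the groups. Ifi204, a DNA-binding PYHIN protein and the most abundant sensor of the set per length (37 TPM in KO and 57.4 TPM in WT), was at 77.9, 27.7 and 29.6 CPM in KO and 74.4, 73.4 and 87.8 CPM in WT (fold 0.574, edgeR adjusted p = 0.317). The estimated counts of Ifi204 are not whole, so its share of the reads is uncertain.

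The oligoadenylate synthetases make the short messenger that switches on the RNA-cutting enzyme RNase L, and 2 of the 6 rose. Oas3 (chromosome 5, 120753098 to 120777684) was at 49.2, 43.9 and 37.4 CPM in KO, against 10.4, 11.4 and 15.1 CPM in WT. It rose 3.54-fold with a wide gap between the groups (43.5 ± 5.9 against 12.3 ± 2.46 CPM, SD, n = 3 each; log2 1.82, SE 0.186, edgeR adjusted p = 0.0157). Oasl2 (chromosome 5, 114896926 to 114912245), a relative that carries ubiquitin-like domains, was at 46.8, 29.6 and 28.7 CPM in KO and 11.8, 13.3 and 14.7 CPM in WT. It rose 2.64-fold (log2 1.40, SE 0.226, edgeR adjusted p = 0.0389). Oas1a, the family member with the highest level per length at 43.4 TPM in KO and 26.6 TPM in WT, was 1.45-fold apart with no overlap (edgeR adjusted p = 0.0563). Part of its reads was shared out with the neighbouring copy Oas1g, since both carry counts that are not whole numbers, so the split between the copies is uncertain. Oas2 was at 34, 13.8 and 11.1 CPM in KO and 8.08, 5.66 and 8.17 CPM in WT, with KO replicate 1 far above its group (edgeR adjusted p = 0.154).

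The IFIT proteins bind foreign RNA and hold back its translation, and 1 of the 3 tested rose. Ifit3 (chromosome 19, 34583119 to 34588982) was at 8.31, 4.31 and 3.7 CPM in KO, against 0.989, 1.39 and 1.14 CPM in WT. It rose 4.64-fold (log2 2.21, SE 0.39, edgeR adjusted p = 0.0454), missed the threshold with limma-voom (0.0666), and has estimated counts that are not whole, so its split from the copy Ifit3b is uncertain. Ifit3b had 33.88, 6.33 and 11.84 estimated counts in KO and 2, 1.12 and 2.33 in WT. Ifit1 was at 6.16, 1.13 and 1.93 CPM in KO and 0.756, 0.809 and 1.08 CPM in WT, so KO replicate 2 lay just above the WT range (edgeR adjusted p = 0.2). Ifit2 was at 19, 3.39 and 2.81 CPM in KO and 2.21, 2.66 and 3.84 CPM in WT. For Ifit2, KO replicate 1 alone stood above the WT libraries (edgeR adjusted p = 0.316).

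**Figure D2:**
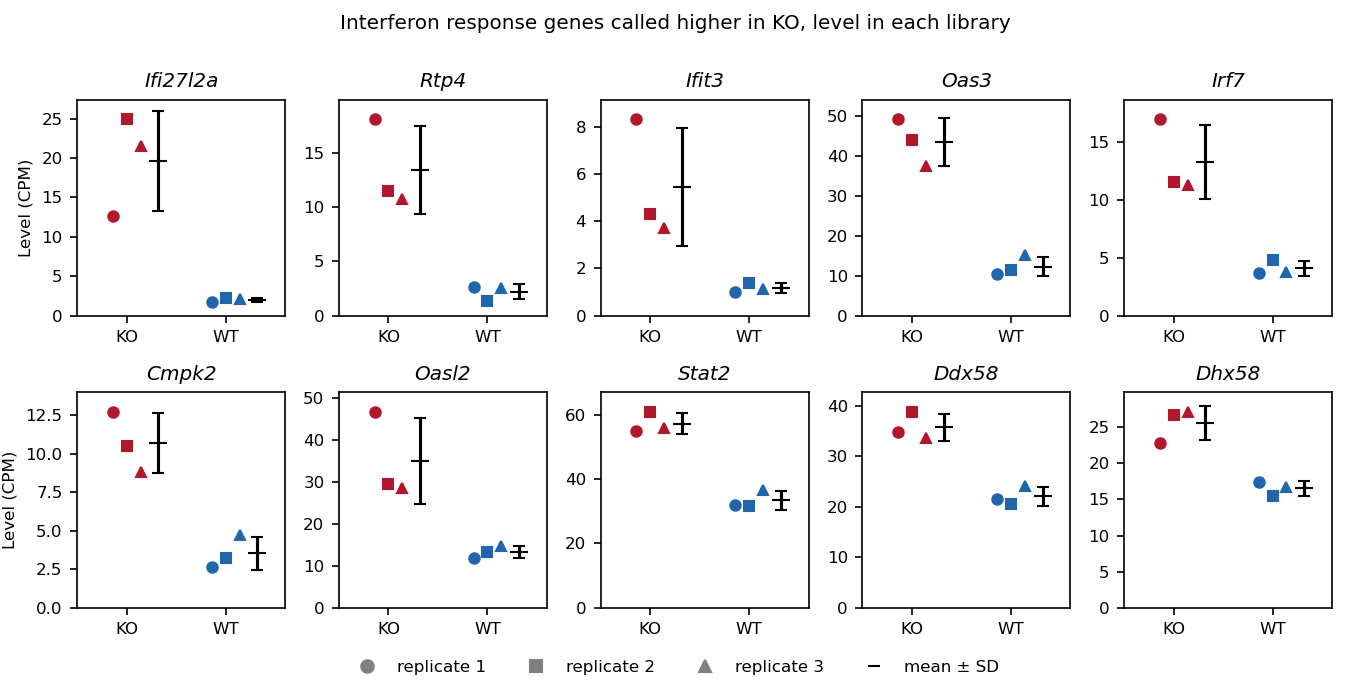
Level in CPM of the 10 genes called higher in KO, in each KO library (red) and WT library (blue), with the mean and SD of 3 libraries in black. The KO and WT libraries do not overlap for any of the 10, and KO replicate 1 is the highest KO library for 6 of them, Irf7, Ifit3, Oas3, Oasl2, Cmpk2 and Rtp4.

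Of the 5 other antiviral effectors tested, 2 rose and 0 fell. Rtp4 (chromosome 16), a zinc-finger protein induced by interferon, was at 18.1, 11.5 and 10.7 CPM in KO, against 2.62, 1.39 and 2.58 CPM in WT. It rose 6.13-fold (13.4 ± 4.05 against 2.19 ± 0.701 CPM, SD, n = 3 each; log2 2.61, SE 0.344, edgeR adjusted p = 0.0249). Its annotated range shares 1022 bases with Masp1, of which 0 are exonic in both. Cmpk2 (chromosome 12, 26469117 to 26479837), a mitochondrial nucleotide kinase, was at 12.7, 10.5 and 8.81 CPM in KO and 2.67, 3.23 and 4.75 CPM in WT. It rose 3.01-fold (log2 1.59, SE 0.273, edgeR adjusted p = 0.0432). Its chromosomal neighbour Rsad2, which encodes the antiviral radical enzyme viperin, was at 20, 8.63 and 7.61 CPM in KO and 6.57, 7.91 and 10.6 CPM in WT. KO replicates 2 and 3 of Rsad2 lay inside the WT range, and only KO replicate 1 exceeded it (edgeR adjusted p = 0.467). Bst2, the tetherin that holds budding virus on the cell, was the most abundant effector per length (238 TPM in KO and 162.4 TPM in WT), at a 1.30-fold difference in CPM (edgeR adjusted p = 0.283).

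Of the 8 genes of Isg15, ubiquitin and ADP-ribose modification, 0 were called by edgeR, and DESeq2 called Isg15 and Dtx3l higher. Isg15 itself was at 6.5, 5.29 and 4.12 CPM in KO, against 1.8, 2.54 and 1.86 CPM in WT. The groups did not overlap, at a 2.56-fold difference (log2 1.35, SE 0.269, edgeR adjusted p = 0.0563; 0.00104 by DESeq2 and 0.047 with upper-quartile factors). Usp18, the protease that removes Isg15 from proteins and dampens the receptor, was at 6.94, 3.49 and 3.39 CPM in KO and 3.2, 2.14 and 1.98 CPM in WT (edgeR adjusted p = 0.225). Dtx3l, a ubiquitin ligase, was at 53.8, 53.4 and 50.4 CPM in KO and 33.1, 34.3 and 40.7 CPM in WT (1.46-fold, edgeR adjusted p = 0.0581). Its partner Parp9 overlaps it by 558 bases in RefSeq, with 458 bases exonic in both genes in GENCODE M21. Parp9 was at 35.5, 30.4 and 26.6 CPM in KO and 29.5, 26.5 and 37.5 CPM in WT. The groups were apart for Dtx3l and overlapped for Parp9. Trim25, a ligase that acts on RIG-I, was at 199.4 ± 24.9 CPM in KO and 201.9 ± 19.5 CPM in WT (SD, n = 3 each; edgeR adjusted p = 0.936).

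Of the 7 remaining genes tested, 1 rose, and by fold it was the largest of the 10 calls: Ifi27l2a (chromosome 12, 103433873 to 103443680), a small hydrophobic protein of mitochondrial membranes. It was at 12.6, 24.9 and 21.5 CPM in KO, against 1.74, 2.19 and 2.1 CPM in WT, a rise of 9.77-fold (log2 3.28, SE 0.303, edgeR adjusted p = 0.0147). Here KO replicate 1 was the lowest KO library. Ifi27 lies inside its range on the opposite strand, sharing 6057 bases, and was at 78.6, 107.9 and 105.1 CPM in KO and 76.8, 71.5 and 62.6 CPM in WT (edgeR adjusted p = 0.147). The annotated exons of the pair share 0 bases in GENCODE M21, and the counts of both are whole numbers. The difference for Ifi27 was 1.38-fold. Lgals3bp, a secreted glycoprotein and the most abundant gene of the set at 391.6 TPM in KO and 298.6 TPM in WT, was 1.18-fold apart in CPM with no overlap (edgeR adjusted p = 0.125). Phf11d was the 1 gene with every KO library below every WT library, at 2.97, 3.75 and 3.7 CPM in KO and 5.12, 5.55 and 5.35 CPM in WT (edgeR adjusted p = 0.125).

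The KO libraries did not carry the set in the same way. KO replicate 1 lay above every WT library for 38 of the 41 genes (92.7%), against 35.8% of all genes tested. For 7 of the 41 (17.1%), KO replicate 1 lay above and KO replicates 2 and 3 below every WT library, a pattern shown by 9.11% of all genes, while the reverse pattern was seen for 0 of the 41 and 7.52% of all genes. KO replicate 1 was the highest KO library for 32 genes (78%, against 44.8%). For 9 genes KO replicates 2 and 3 both lay below every WT library (22%, against 35.6% of all genes), and for 12 KO replicate 1 was over 2 times KO replicates 2 and 3 (29.3%, against 14.3%). The 7 genes with the first of these patterns were Eif2ak2, Herc6, Ifi203, Ifih1, Parp14, Samd9l and Trim30a, chosen after their values were seen. Ifi203 and Trim30a have estimated counts that are not whole, so their share of the reads is uncertain. Samd9l, a brake on translation and growth, was at 76, 7.91 and 18.9 CPM in KO, against 38.8, 43.1 and 64.4 CPM in WT. Eif2ak2, the double-stranded RNA kinase PKR, was at 67.8, 12.3 and 21.7 CPM in KO and 42.4, 41.9 and 46.3 CPM in WT. Parp14, an ADP-ribosyltransferase, was at 165.6, 34.9 and 56.6 CPM in KO and 90.4, 100.2 and 116 CPM in WT. KO replicate 1 was thus 1.34 to 2.02 times the WT mean for these 7 genes, and KO replicates 2 and 3 were 0.162 to 0.588 times.

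**Figure D3:**
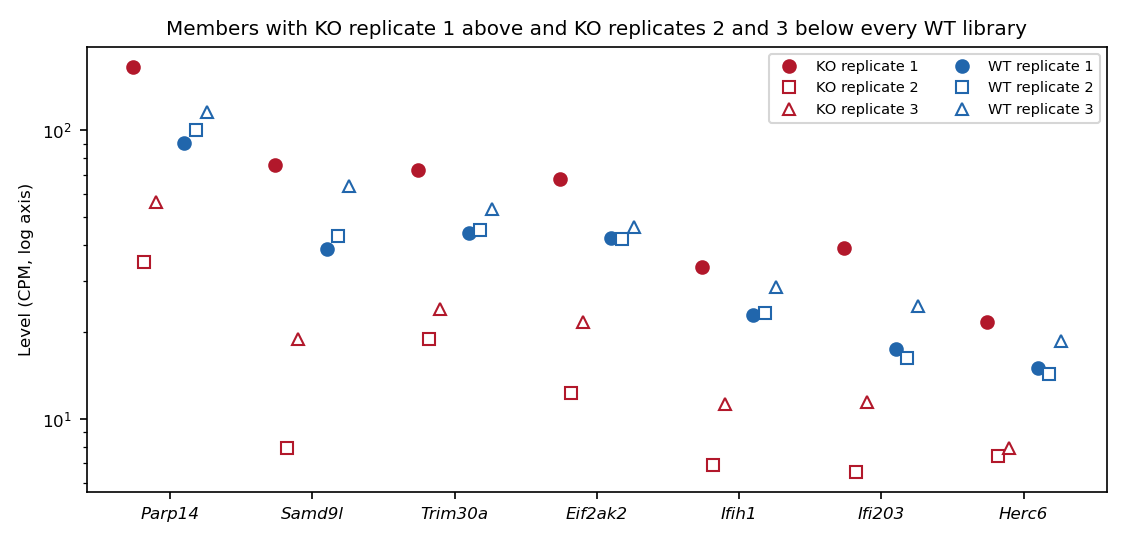
Level in CPM (log axis) of the 7 genes with KO replicate 1 above and KO replicates 2 and 3 below every WT library, with KO libraries in red and WT libraries in blue. For Samd9l the KO libraries run from 7.91 to 76 CPM, around a WT range of 38.8 to 64.4 CPM.

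Without KO replicate 1 the set divided. Then 20 of the 41 were higher and 9 lower by edgeR, among 49.6% of all 11677 genes tested that were called (23.6% higher and 26% lower), so the share of lower genes was near that of all genes. All 10 genes called with 6 libraries, a choice that used these same libraries, were called higher there, with log2 differences of 0.72 to 3.54. The 9 lower genes were the 7 above with Ifi204 and Phf11d. Leaving out KO replicate 2, KO replicate 3 or any 1 WT replicate left 0 of the set called by edgeR, where 5 to 15 of all genes were called. In those 5 fits the 10 genes stayed higher with unadjusted p of at most 0.0135 and adjusted p of 0.0574 to 0.278.

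GC content and transcript length differed between the 7 divided genes and the 10 called genes. The 7 divided genes had transcripts of 38.4% to 46.3% GC (median 40.8%) and the 10 called genes 46.6% to 55.3% (median 51.2%), where the median of all genes tested was 50.1%. Their lengths were 3754 to 7417 bases (median 4767) and 463 to 4720 bases (median 2767.5), with a median of 2708 over the 41. Ifi204 and Phf11d, also lower without KO replicate 1, had 40.6% and 42.1% GC but shorter transcripts of 2296 and 2666 bases. Over the 41 genes, GC content and the log2 difference without KO replicate 1 had a Pearson's r of 0.641 and a Spearman's rho of 0.552, and over all 11490 genes 0.326 and 0.392. These are descriptions across genes of the same libraries, not of independent replicates. For KO replicate 1 against the WT mean, r over the 41 was 0.082. With a correction for GC content and length, and without KO replicate 1, 20 of the set were higher and 5 lower, among 53% of all genes called (25.6% higher and 27.4% lower). Of the 7 divided genes, 3 were still called lower with the correction. Eif2ak2 then had a log2 difference of -0.90, against -1.34 without the correction (edgeR adjusted p = 0.00539 with it), Ifih1 -0.72, against -1.44 (0.00191), and Parp14 -1.04, against -1.15 (0.00243). Samd9l had -0.51, against -1.85, and Trim30a -0.05, against -1.14, and neither was called. Ifi203 and Herc6 had 0.25 each, against -1.10 and -1.05, and were not called. Ifi204 was the fourth of the 5 lower genes, and Trim25, which was not called without the correction, the fifth at -0.28, against -0.10 (0.00603). With all libraries and the correction, 11 of the set were higher and 0 lower, among 6.26% of all genes (3.31% higher and 2.94% lower). Of the 10 genes called without the correction, 9 were called with it, and Oasl2 was at an adjusted p of 0.0528.

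**Figure D4:**
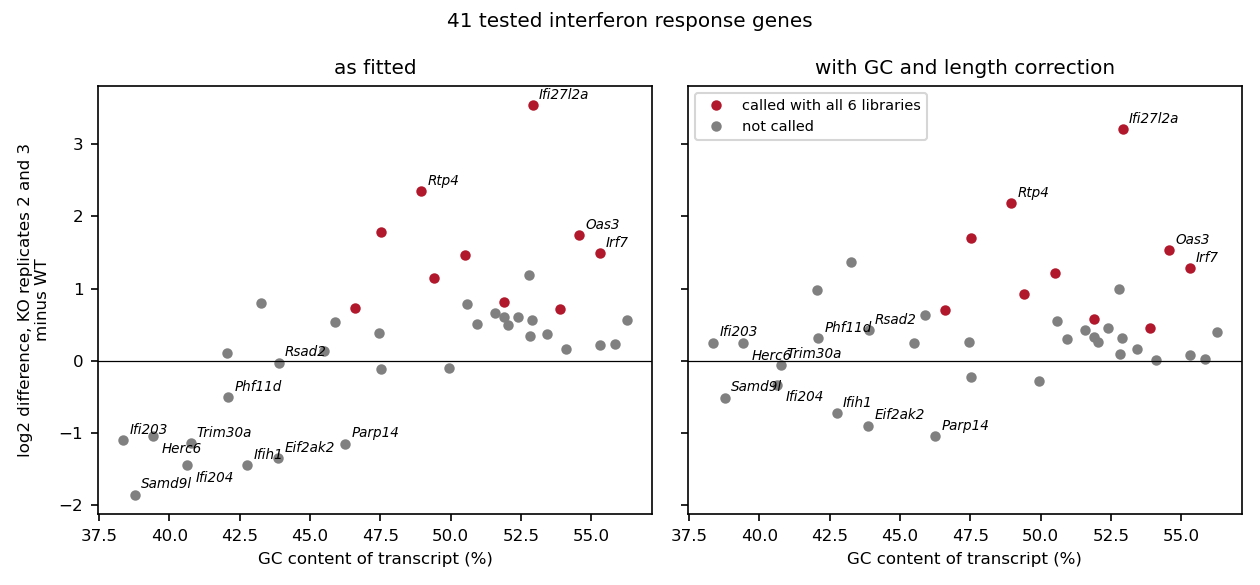
GC content of the transcript (%) against the log2 difference of KO replicates 2 and 3 minus WT for the 41 tested genes, as fitted on the left and with the GC and length correction on the right. Genes called with all 6 libraries (red) stay above 0 in both panels, and Ifi203, Herc6, Phf11d and Rsad2 lie below 0 on the left, Rsad2 by 0.02, and above it on the right.

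Upstream of the set, of 10 tested receptors, kinases and STATs, 0 rose and 0 fell by edgeR at an adjusted p under 0.05. The list was not limited to type I interferon and also held genes such as Ifngr1, Il10rb and Stat3. Of all genes, 2.26% were called higher and 1.06% lower. DESeq2 called 1 of the list higher and 0 lower, against 7.12% and 3.69% of all genes. Without KO replicate 1, edgeR called 6 of 10 higher and 1 lower, against 23.6% and 26% of all genes. Ifnar1 was at 159.2, 200.6 and 185.6 CPM in KO and 135.9, 129 and 149.9 CPM in WT, without overlap (edgeR adjusted p = 0.123). Ifnar2 was at 119.7, 173.1 and 161.7 CPM in KO and 148.9, 136.7 and 135.2 CPM in WT, and overlapped (edgeR adjusted p = 0.658). Interferon genes themselves were at or near 0: of 21 listed, Ifnk, Ifnz and Ifng were in the table, and their summed level was at most 0.104 CPM in KO and 0.0582 CPM in WT. Of the 12 negative regulators tested, 0 were called by edgeR and 0 by DESeq2. Without KO replicate 1, 13 were tested by edgeR, with 2 higher and 2 lower. Among these regulators Ptpn6, a phosphatase gene, was at 212.6, 274.3 and 260.4 CPM in KO and 189.5, 198.7 and 193.3 CPM in WT (edgeR adjusted p = 0.136).

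Of 23 genes listed for the induction of interferon, 2 rose and 0 fell by edgeR, with a median log2 difference of -0.15. The list also held enzymes that limit induction, such as Trex1 and Samhd1, so its counts are not those of inducers alone. The counts were 4 higher and 1 lower by DESeq2, 3 higher and 1 lower when GC content and length were corrected for, and 5 higher and 7 lower without KO replicate 1. The shares of all genes called higher and lower were 2.26% and 1.06% by edgeR, 7.12% and 3.69% by DESeq2, 3.31% and 2.94% under that correction, and 23.6% and 26% without KO replicate 1. Tlr9, the endosomal receptor for unmethylated DNA, was at 47.3, 56.7 and 63.3 CPM in KO, against 22, 22.1 and 23.9 CPM in WT (log2 1.30, edgeR adjusted p = 0.0157). Ikbke, a kinase that activates IRF factors, was at 109.7, 101 and 102.3 CPM in KO and 64.5, 76 and 71.8 CPM in WT (log2 0.56, edgeR adjusted p = 0.0416). With the GC and length correction Ikbke was at 0.121. Of 48 further interferon-inducible genes tested, 2 rose and 1 fell by edgeR, and 13 were higher and 1 lower by DESeq2. Their median log2 difference was 0.14, against 0.54 for the set. When KO replicate 1 was left out, edgeR called 17 of these 48 genes higher and 18 lower, so they then showed no net rise in calls. Sp110, a nuclear body protein, was at 41.9, 42.4 and 40.8 CPM in KO and 26.4, 26.4 and 28.8 CPM in WT (log2 0.62, edgeR adjusted p = 0.0297). Ube2l6, the conjugating enzyme for Isg15, was at 40.5, 41.2 and 40.6 CPM in KO and 28.3, 27.3 and 23.7 CPM in WT (log2 0.62, edgeR adjusted p = 0.0394). Ms4a6d, a membrane protein of macrophages, fell to 177.3, 167.2 and 171.3 CPM in KO, against 264.5, 220.4 and 263.2 CPM in WT (edgeR adjusted p = 0.049), a call lost with the GC and length correction (0.422).

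Markers of other cells set KO replicate 1 apart, some higher there and some lower. All 8 macrophage markers were present in all 6 libraries. Their summed level was 24191 to 49002 CPM in KO and 40530 to 45889 CPM in WT, KO replicate 1 being the lowest of the 6. Lyz2 was at 13171 CPM there, 36709 and 35108 CPM in KO replicates 2 and 3, and 29743 to 34034 CPM in WT. Lyz2 made up most of the sum in every library, and the low sum of KO replicate 1 follows the low Lyz2 level there. The 7 large peritoneal macrophage markers in the table summed to 100.8 to 190.9 CPM in KO and 169.7 to 253.9 CPM in WT, most of it Cd5l, with Icam2 called higher in KO among 4 tested and Timd4 at most 1.25 CPM in all 6 libraries. The 9 monocyte markers summed to 99 to 208.3 CPM in KO and 20.2 to 21.9 CPM in WT. Of these, Cx3cr1 and Spn were high in all KO libraries, while Ly6c2 and Ccr2 of classical monocytes were at 20.1 and 64.1 CPM in KO replicate 1 and at most 0.103 and 2.5 CPM in KO replicates 2 and 3, against at most 0.751 and 2.58 CPM in WT. Siglech, a marker of plasmacytoid dendritic cells, which are strong interferon producers, was at 2.7 CPM in KO replicate 1 and at most 0.0601 CPM elsewhere. The 7 plasmacytoid dendritic cell markers in the table summed to 19.6 to 57.2 CPM in KO and 36.6 to 48 CPM in WT. Of these, 5 stayed under 1 CPM in all 6 libraries and 1 was tested, so the sum rests on few of them. The 7 neutrophil markers summed to 19.3 to 173 CPM in KO and 40.4 to 44.5 CPM in WT. KO replicate 1 was the highest library for both sums. Platelet markers summed to 3.08 to 16.1 CPM in KO and 51.7 to 95.4 CPM in WT, with 3 of 6 called lower. Conventional dendritic cell, B cell, T and NK cell, fibroblast and mesothelial, and erythroid markers each summed to at most 59 CPM in every library. Of these, conventional dendritic cell markers were at 9.63 CPM in KO replicate 1, against 1.45 to 1.56 CPM in WT. KO replicate 1 was the lowest KO library for B cell markers (9.85 CPM, against 43 to 59 CPM in WT). It was also lowest for T and NK cell (3.25, against 22.5 to 29.1) and fibroblast and mesothelial markers (2.09, against 4.99 to 7.85). For fibroblast and mesothelial markers the highest KO library reached 30 CPM, above the WT range. Without KO replicate 1, 4 of the 4 tested were called higher by edgeR, against 23.6% of all genes. The 10 called genes were called higher without KO replicate 1 as well, where 23.6% of all genes were. They had been picked with those same libraries among the 6, so the repeat is not a separate test. In the KO libraries left, Ly6c2, Ccr2 and Siglech were at or near the WT level, and Cx3cr1 and Spn were not. The part of these cells in the values of KO replicate 1 was not tested, and in sorted bulk RNA more cells of a type cannot be told apart from more RNA per cell.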

How the data were processed

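Polyadenylated RNA of sorted, plated RELM-α+ peritoneal macrophages was captured on beads and read on a NovaSeq sequencer, per the labels' protocols. The submitters' processing notes name fastp 0.18.0 and the build GRCm39; how reads were aligned and counted, and with which strand setting, was not stated in those sources. The table's coordinates are those of GRCm38, since 13131 of 15426 genes matched by gene ID had the same start as RefSeq GRCm38.p6.

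The authors deposited estimated counts per gene, not normalized, per the file headers; 4.82% to 5.49% of a library's values were not whole and all were rounded. The authors also deposited TPM values, used here only for levels between genes, and FPKM values, not used, per the file headers. The authors' deposited table of log2 fold changes, p-values and q-values holds 1238 genes at q under 0.05, of which 18 were interferon response genes, all higher in KO.

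The test was edgeR's quasi-likelihood test on KO against WT (TMM factors, genes with at least 10 counts by edgeR's filter, Benjamini-Hochberg adjustment over all 11424 genes), checked on simulated data. The alternatives were DESeq2, limma-voom, other factors and filters, the replicate number as a block and each library left out; a GC content and length correction, and KO replicate 1 left out under it or under DESeq2, were added after seeing the data. GC content and length were those of the longest coding transcript of GENCODE M21. Genes were named by a rule on role, call and size of change, and a few after their values were seen. The members and lists were chosen with earlier results of these data known. Intervals cover counting and replicate spread as edgeR models them. Values of some genes of the pathway and marker lists are not reported here.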

Additional observations from a re-analysis of the deposited data

How the results depend on the processing

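With 379 genes and 10 interferon response genes called as reported, DESeq2 called 1344 and 18, a mean of at least 10 CPM 229 and 6 (28 of the set tested), and an adjusted p under 0.01 left 15 and 0. Leaving out 1 library gave 5 to 5793 genes and 0 to 29 of the set, the high end without KO replicate 1 and 0 of the set without any other library, where 17 to 19 of the set had an unadjusted p under 0.05, against 13.1% to 17.7% of all genes. The GC content and length correction called 704 genes, 373 higher and 331 lower against 258 and 121 without it, and 11 of the set. Without KO replicate 1 it called 6094 and 25, and DESeq2 there called 5352 and 27. The median log2 difference of the set was 0.54 as reported, 0.37 over genes averaging 10 CPM or more and 0.32 with the correction and without KO replicate 1. The replicate number as a block called 0 genes and 0 of the set, of which 19 had an unadjusted p under 0.05, against 17.3% of all genes, and the 10 called genes an adjusted p of 0.0916 to 0.206. Libraries of the same number deviated from their group means with correlations of -0.162, 0.246 and -0.271. With every WT library, KO replicate 1 correlated in the opposite sign to the other KO libraries. The values thus follow how far KO replicate 1 stood apart, and cannot show whether the numbers mark pairs. The test as reported did not take the numbers as pairs. Of the 41 genes, 32 kept their sign under all settings that tested them and 9 did not. With upper-quartile factors Trim25 was at log2 0.0352 and Parp9 at 0.0403, and with at least 10 CPM on average they were at 0.0035 and 0.00701. With the GC content and length correction Ifi203 was at 0.504, Herc6 at 0.241 and Trim30a at 0.138, and without KO replicate 1 as well Ifi203 was at 0.255, Herc6 at 0.251 and Phf11d at 0.321. DESeq2 without KO replicate 1 gave -0.033 for Rsad2. With 1 library left out, Trim25 ran from -0.0975 to 0.058, Parp9 from -0.14 to 0.134, Parp14 from -1.15 to 0.0967, Eif2ak2 from -1.34 to 0.0143, Ifi203 from -1.10 to 0.359 and Rsad2 from -0.0245 to 0.747. Of the pathway genes named, Ifnar2 was at -0.0911 with the correction and ran from -0.0168 to 0.27 with 1 library left out. The cause was not tested. The median over all genes stayed within 0.1 of 0 on the log2 scale under each setting. Genes under about 1 CPM, such as Ifi44, could not be compared at this depth.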
